A study of Mus musculus with 12 samples.

Results

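Transcript levels of 8 genes for secreted acute phase, complement and innate defence proteins were examined in RAW264.7 cells, a transformed mouse macrophage line. The genes were Saa3, Lcn2, Hp, Lyz2, Slpi, C3, Cfb and Cfp. They were taken by symbol from a table of 49585 genes, and each symbol matched 1 gene. RNA sequencing had been done on 12 libraries in 4 groups of 3. Mdivi-1, a compound used as an inhibitor of the mitochondrial fission protein Drp1, was given at 50 µM for 24 h in 1 group and for 96 h in another. The other groups were kept for 24 h and 96 h without Mdivi-1. Every culture, those without Mdivi-1 included, had lipopolysaccharide at 10 ng/mL and mouse interferon-γ at 10 ng/mL, and Mdivi-1 began together with them. No unstimulated culture was among the samples, so a response to the stimulus itself was not measured. The labels give 1 cell line and do not say whether libraries of a group came from separate cultures. P-values therefore measure the spread between these libraries, which may be technical.

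The acute phase response is the change in secreted proteins that follows infection or injury. The liver is its main source, and macrophages exposed to bacterial products make several of the same proteins locally. In the alternative pathway of complement, C3 is cleaved and its fragment is deposited on microbes, factor B joins it to form the convertase that cleaves more C3, and properdin holds that convertase together. Other members act directly on microbes or on host proteases: lysozyme cuts bacterial cell walls, lipocalin 2 takes iron-carrying siderophores away from bacteria, and the secretory leukocyte protease inhibitor blocks neutrophil serine proteases.

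The proximal promoters of Saa3 and Lcn2 are printed because these were the members that passed the test in comparisons with Mdivi-1. Each run is 300 bases, from 250 bases before to 50 bases after the annotated start, read 5′ to 3′ on the strand of the gene, from RefSeq on GRCm38.p6. Capitals mark matches to the motifs searched on both strands, which were the C/EBP core TTNNGCAA, the interferon-stimulated response element core GAAANNGAA, the interferon-γ activated site TTCNNNGAA and the kappaB consensus. Saa3 lies at chr7:46715627-46715926 on the minus strand and Lcn2 at chr2:32387690-32387989 on the minus strand.
Saa3: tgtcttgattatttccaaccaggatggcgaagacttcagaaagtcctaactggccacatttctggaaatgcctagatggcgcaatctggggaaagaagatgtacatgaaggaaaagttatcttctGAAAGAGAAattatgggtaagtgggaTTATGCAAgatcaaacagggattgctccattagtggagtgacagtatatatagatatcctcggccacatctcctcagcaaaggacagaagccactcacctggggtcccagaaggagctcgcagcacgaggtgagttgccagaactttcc
Lcn2: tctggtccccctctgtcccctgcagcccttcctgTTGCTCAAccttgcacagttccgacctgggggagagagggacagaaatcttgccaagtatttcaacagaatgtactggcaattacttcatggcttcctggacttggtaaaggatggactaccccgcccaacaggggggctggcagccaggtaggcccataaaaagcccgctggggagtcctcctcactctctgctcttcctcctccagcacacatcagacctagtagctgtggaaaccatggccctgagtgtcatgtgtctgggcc
The Saa3 window held the interferon-stimulated response element core at positions -125 to -117 and the C/EBP core at -99 to -92, counted from the start site, and these 2 matches did not overlap. The Lcn2 window held the C/EBP core on its opposite strand at -216 to -209. Of the 8 genes, 6 had a promoter in the table used. Slpi held a C/EBP core at -241 to -234 and C3 held one on its opposite strand at -45 to -38, while the windows of Lyz2 and Cfp held none of the 4 motifs. The C/EBP core was present in 10.8% of the 32851 promoters of this length, the response element core in 8.56%, the kappaB consensus in 8.46% and the activated site in 8.3%. A match is a description of the letters and not a measured site.

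The libraries differed in what they held. Both 24 h libraries numbered 3 had 90.8% and 91.6% of their TPM (a share of transcripts corrected for length and scaled to 1000000 in each library) in mitochondrial ribosomal RNA, and protein-coding genes made up 1.49% and 3.07%. These 2 libraries were left out of the fit, which leaves 2 libraries in each 24 h group, and the count of members that passed is also given with all 12. The other 24 h libraries had 3.37% to 4.56% mitochondrial ribosomal RNA, against 53.1% to 74.2% in the 6 libraries at 96 h. The level of 1981 genes for odorant, pheromone and trace amine receptors, which are typical of sensory neurons, served as a measure of background. Their median was 0 TPM in the 24 h libraries numbered 1 and 2, and at 96 h it was 1.25, 1.35 and 1.82 TPM with Mdivi-1 and 2.68, 2.08 and 0.495 TPM without it. Macrophage markers (9 of 10 listed genes were in the table) summed to 5518 to 5652 TPM with Mdivi-1 and 5457 to 5600 TPM without it at 24 h, and to 135 to 161 TPM and 107 to 165 TPM at 96 h. The label of the cells was thus matched by high macrophage markers at 24 h, whereas at 96 h between 1 and 5 of the 9 markers lay at or under the 90th percentile of the receptor genes.

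At 24 h all 8 genes were lower on deposited TPM with Mdivi-1 than without it, and none passed the test. Lyz2 alone changed sign under an alternative, to a log2 change of 0.0283 with median-of-ratios scaling and 0.15 with all 12 libraries. Saa3 and Lcn2 were at about the same fraction of their level without Mdivi-1, with ratios of mean TPM of 0.528 and 0.492. For Slpi, Cfp, C3 and Lyz2 the ratios ran from 0.813 to 0.877. The comparison addresses whether Mdivi-1 alters these genes while the stimulus is recent.

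Saa3, an acute phase apolipoprotein that mouse macrophages make, had 1258 and 1406 TPM with Mdivi-1, against 2387 and 2659 TPM without it. The groups did not overlap, and the log2 change was -0.92 ± 0.17 (SE, limma, adjusted p = 0.0627). Lcn2 had 60.0 and 59.5 TPM with Mdivi-1, against 122 and 121 TPM without it. Replicates of Lcn2 lay close together within each group, and its log2 change was -1.01 ± 0.19 (adjusted p = 0.0717). Hp encodes haptoglobin, which binds free haemoglobin. It had 60.5 and 64.0 TPM with Mdivi-1, against 110 and 116 TPM without it, a log2 change of -0.85 ± 0.23 (adjusted p = 0.257).

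Among the complement genes, Cfb, which encodes factor B, showed the widest gap. It had 517 and 524 TPM with Mdivi-1, against 770 and 790 TPM without it, a log2 change of -0.58 ± 0.20 (adjusted p = 0.477). C3, the central component, had 184 and 155 TPM with Mdivi-1, against 203 and 194 TPM without it. The C3 libraries with Mdivi-1 lay further apart than the nearest libraries of the 2 groups. Cfp, which encodes properdin, had 164 and 167 TPM with Mdivi-1, against 191 and 214 TPM without it. Slpi had 22.4 and 26.6 TPM with Mdivi-1, against 32.1 and 28.1 TPM without it, so that the nearest libraries of the 2 groups were almost level. Lyz2, the macrophage lysozyme, had 13388 and 12886 TPM with Mdivi-1, against 14732 and 15219 TPM without it. It was the most abundant of the 8 genes in every library fitted. Among 21721 protein-coding genes it ranked 3 with Mdivi-1 and 2 without it at 24 h, and 37 to 45 with Mdivi-1 and 30 to 36 without it at 96 h.

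By limma, 0 of the 8 passed an adjusted p under 0.05 at 24 h, and 4 had an unadjusted p under 0.05, as did 6.14% of all genes tested. Over all 19631 genes tested, 0.295% passed in the downward direction. The median log2 change was -0.44 over the members, -0.06 over all genes tested and -0.19 over protein-coding genes averaging at least 5 TPM. The groups did not overlap for 8 of 8 members, and the same held in the downward direction for 40.4% of all genes tested. The filter on the 24 h libraries alone kept 11105 genes, so many of the 19631 were low at 24 h. Neither this share nor the 25.1% given below was taken among genes as high as the members. The 8 of 8 may therefore be less unusual than it looks beside them. After rescaling to the sum over protein-coding genes, 4 of 8 members (Saa3, Lcn2, Cfb and Hp) did not overlap, beside 25.1% of genes. On that scale the ratios of means were 0.598 for Saa3, 0.557 for Lcn2, 0.755 for Cfb and 0.624 for Hp. Protein-coding genes held 38.5% to 41.4% of TPM with Mdivi-1 and 45.0% to 45.2% without it at 24 h. Fitted on the 24 h libraries alone, where the spread is taken from 4 libraries, Saa3, Lcn2, Cfb, Cfp, Hp and Lyz2 passed, as did 21.2% of 11105 genes in the downward direction. With all 12 libraries 0 of 8 passed, and neither did any other of 17668 genes. Markers of fibroblasts summed to 54.6 to 74.9 TPM with Mdivi-1 and 262 to 286 TPM without it, and all 9 were above 0 in every one of these libraries. Col1a1, Col1a2 and Dcn made up most of that sum. Fap was at most 0.0726 TPM and overlapped between the groups. The part of the fibroblast markers in the lower values of the members was not tested. Hepatocyte markers, of interest because the liver makes Hp and C3, summed to at most 0.101 TPM with Mdivi-1 and 0.125 TPM without it at 24 h. The 9 neutrophil markers summed to 27.9 to 34.4 TPM with Mdivi-1 and 28.5 to 34.3 TPM without it at 24 h, with 5 or 6 of them listed at 0 in each library. S100a8 made up most of that sum, and Mpo, Retnlg and Cxcr2 were at 0 in all 4 libraries. In bulk RNA, fewer cells of a type and less RNA per cell cannot be told apart.

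**Figure D1:**
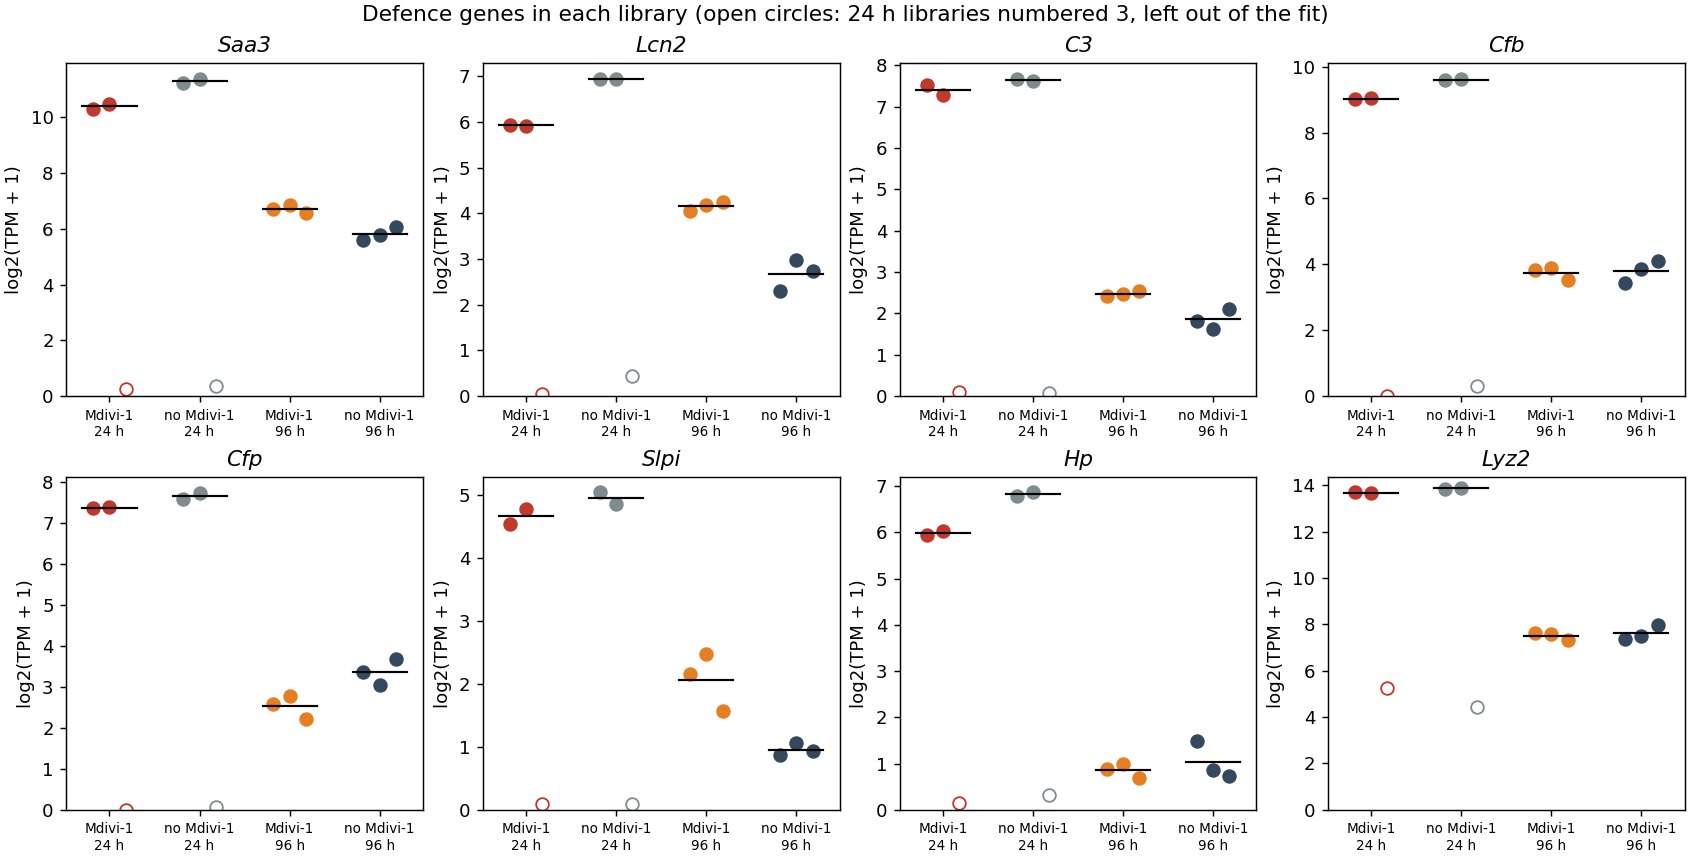
Level of each member in each of the 12 libraries, on the log2(TPM + 1) scale, with a line at the mean of the libraries fitted. At 24 h the filled points with Mdivi-1 lie below those without it in every panel, at 96 h Saa3, Lcn2, C3 and Slpi lie above and Cfp below, and the open points mark the 24 h libraries numbered 3.

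At 96 h the direction differed between members. Lcn2 and Saa3 rose with Mdivi-1 relative to cultures without it, with ratios of mean TPM of 3.08 and 1.86. Slpi and C3 were also higher in every library with Mdivi-1, and Cfp was lower in every one, without passing the test. Cfb, Lyz2 and Hp overlapped between the groups.

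Lcn2 had 15.5, 17.1 and 18.1 TPM with Mdivi-1, against 3.89, 6.90 and 5.67 TPM without it. The groups lay well apart, and the log2 change was 1.49 ± 0.16 (SE, limma, adjusted p = 0.00950). Lcn2 ranked 389 to 458 among protein-coding genes with Mdivi-1 and 1186 to 3256 without it. In the first library without Mdivi-1, 26.2% of the receptor genes were at or above Lcn2, so its level there was within the background. In the libraries with Mdivi-1, at most 0.101% were. Saa3 had 102, 114 and 94.0 TPM with Mdivi-1, against 47.3, 53.4 and 66.1 TPM without it. The groups did not overlap, no receptor gene reached Saa3 in any library, and the log2 change was 0.89 ± 0.14 (adjusted p = 0.0451).

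Slpi had 3.47, 4.58 and 1.97 TPM with Mdivi-1, against 0.823, 1.10 and 0.910 TPM without it. The log2 change was 1.11 ± 0.21 (adjusted p = 0.105), and 15.2% to 87.8% of the receptor genes were at or above Slpi in the libraries without Mdivi-1. With Mdivi-1 the share was 3.38% to 45.4%, the highest in the third library. C3 had 4.35, 4.57 and 4.84 TPM with Mdivi-1, against 2.55, 2.09 and 3.34 TPM without it, a log2 change of 0.62 ± 0.13 (adjusted p = 0.160). In the libraries without Mdivi-1 up to 53.7% of the receptor genes reached the level of C3. The 2 libraries without Mdivi-1 in which C3 was lowest were those with the higher receptor medians.

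Cfp had 5.03, 5.86 and 3.63 TPM with Mdivi-1, against 9.23, 7.20 and 11.7 TPM without it. Its log2 change was -0.83 ± 0.18 (adjusted p = 0.160). With Mdivi-1, 1.26% to 11.4% of the receptor genes were at or above Cfp, the highest share in the third library. Without Mdivi-1 the share was at most 2.6%. Cfb, whose product acts in the same convertase, had 13.3, 13.8 and 10.4 TPM with Mdivi-1, against 9.80, 13.4 and 16.1 TPM without it. The log2 change of Cfb was -0.04 ± 0.16, and its sign turned positive under median-of-ratios scaling, after subtraction of the background and without either library numbered 3. Lyz2 had 198, 190 and 158 TPM with Mdivi-1, against 163, 180 and 248 TPM without it. Hp had 0.849, 0.990 and 0.619 TPM with Mdivi-1, against 1.81, 0.805 and 0.668 TPM without it, and 30.1% to 87.1% of the receptor genes were at or above Hp in these libraries. No level of Hp could be told from the background at 96 h.

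**Figure D2:**
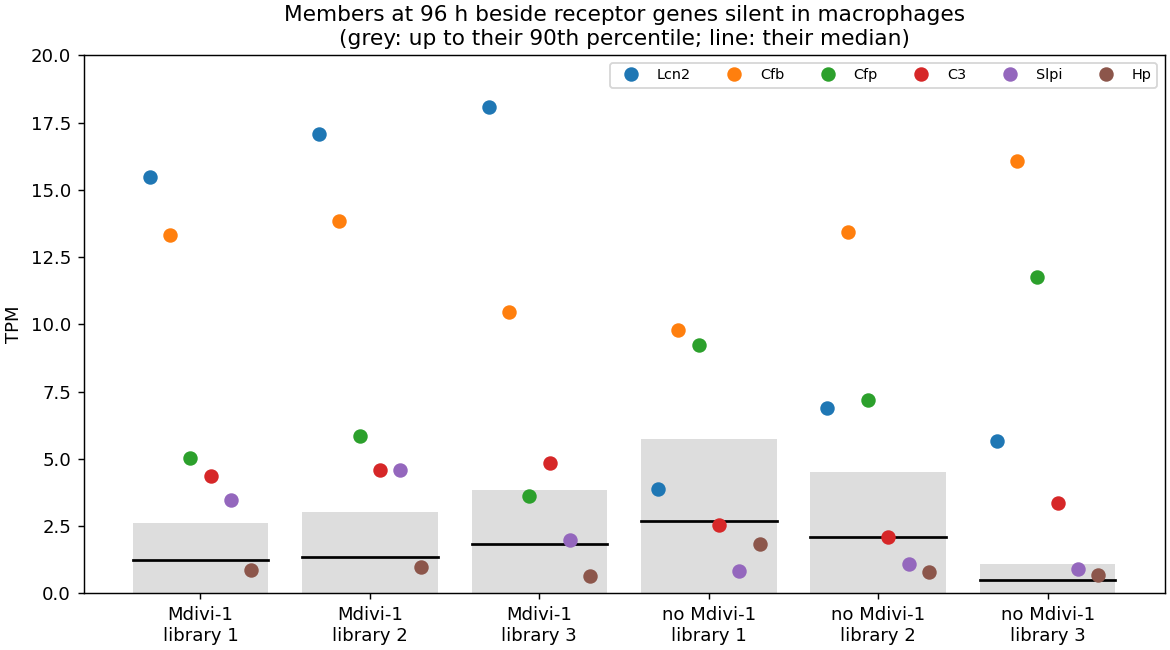
TPM of 6 members in each library at 96 h, over a grey bar that reaches the 90th percentile of the receptor genes and a line at their median. Lcn2 and Cfb stand above the bar in every library with Mdivi-1, Lcn2 falls inside it in the first library without Mdivi-1, and Hp stays inside it in all 6.

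By limma, 2 of 8 members passed at 96 h, both upward, and 5 had an unadjusted p under 0.05, as did 5.69% of all genes tested. Over all genes tested 0.102% passed upward and 0.0408% downward. The median log2 change was 0.29 over the members, -0.06 over all genes tested and -0.07 over protein-coding genes averaging at least 5 TPM. On deposited TPM the groups did not overlap for 4 members upward (Saa3, Lcn2, C3 and Slpi), beside 2.13% of genes, and for 1 downward (Cfp), beside 4.05%. After rescaling to protein-coding genes, Lcn2 and Slpi remained apart upward, beside 1.78% of genes, and Cfp downward, beside 3.41%. The third library without Mdivi-1 had 12.8% of its TPM in protein-coding genes, the lowest share of the 6, and rescaling put Saa3 there at 517 TPM of protein-coding RNA, above the 435 to 495 TPM in the libraries with Mdivi-1. On that scale the log2 changes were 1.60 for Lcn2 (adjusted p = 0.337) and 0.89 for Saa3 (adjusted p = 0.856), and neither passed. Of all genes 0.171% passed there. With the 96 h libraries fitted alone the changes were as in the common fit, 1.49 and 0.89, and neither passed (adjusted p = 0.446 and 0.956). In that fit 0 of 23458 genes passed, so it could not set the members apart from other genes. With all 12 libraries 0 of 8 passed, beside 0.108% of 17668 genes. Saa3 kept its call without the third library without Mdivi-1 (adjusted p = 0.00832) and lost it when any other 1 of the 10 libraries was left out (adjusted p = 0.0592 to 0.153). Lcn2 kept its call in each of these 10 fits (adjusted p = 0.00439 to 0.0492). Summed markers at 96 h were 6.09 to 7.04 TPM with Mdivi-1 and 2.63 to 10.6 TPM without it for fibroblasts, and 5.76 to 6.89 TPM and 3.07 to 12.2 TPM for neutrophils, which also make Lcn2, Slpi and lysozyme. All 9 fibroblast markers lay at or under the 90th percentile of the receptor genes in every 96 h library.

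**Figure D3:**
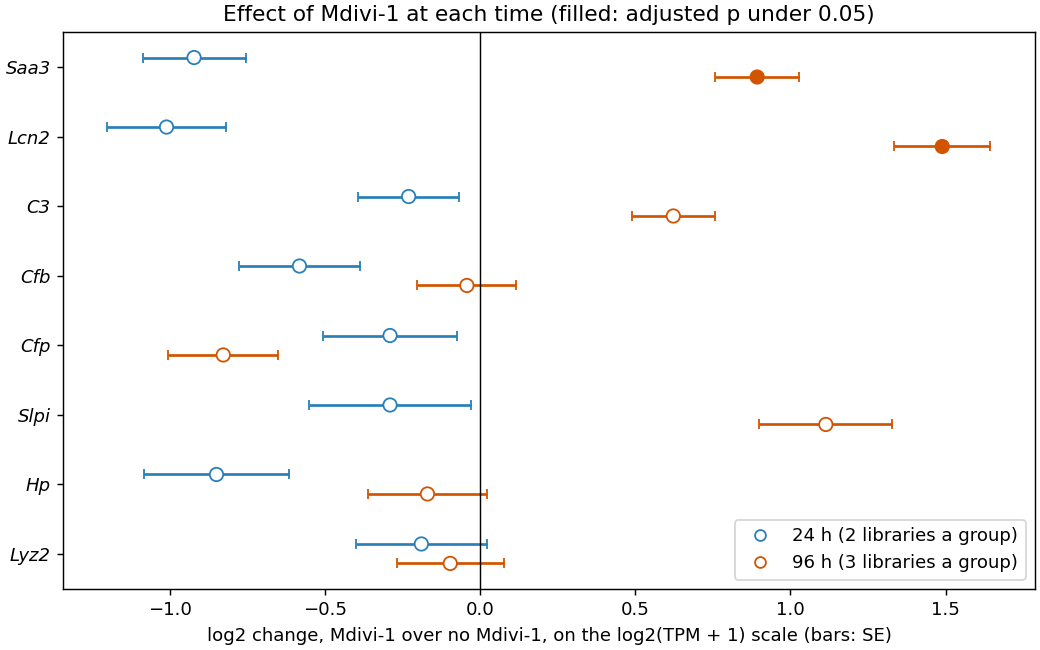
Log2 change of each member with Mdivi-1 relative to no Mdivi-1 at 24 h (upper point) and 96 h (lower point), with SE from the common fit; filled points passed an adjusted p of 0.05. All 8 points at 24 h are below 0, and at 96 h Lcn2 at 1.49 and Saa3 at 0.89 are filled.

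The change with Mdivi-1 was then set against itself between the times. For Lcn2 the log2 change at 96 h exceeded that at 24 h by 2.50 ± 0.25 (limma, adjusted p = 0.00514), and for Saa3 by 1.81 ± 0.21 (adjusted p = 0.0158). These 2 of 8 members passed upward, beside 0.112% of all genes tested, and 5 of 8 had an unadjusted p under 0.05, as did 4.42% of genes. The differences of Slpi (1.40 ± 0.34, adjusted p = 0.309) and C3 (0.85 ± 0.21, adjusted p = 0.326) did not pass. Cfp was the 1 member with a negative difference (-0.54 ± 0.28). The median difference was 0.77 over the members, 0.09 over all genes tested and 0.13 over protein-coding genes averaging at least 5 TPM. For Saa3 the call was lost without any 1 of the 4 libraries at 24 h (adjusted p = 0.122 to 0.202) and without the first library with Mdivi-1 at 96 h (adjusted p = 0.0504). For Lcn2 it was lost without any 1 of the 4 libraries at 24 h (adjusted p = 0.0636 to 0.0775). On the protein-coding scale the differences were 2.44 for Lcn2 and 1.63 for Saa3 and neither passed (adjusted p = 0.690 and 1). Of all genes 0.00884% passed on that scale.

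Ratios between members within a library do not depend on how that library was scaled. Per 100 TPM of Lyz2, Saa3 stood at 9.39 and 10.9 TPM with Mdivi-1 at 24 h, against 16.2 and 17.5 TPM without it. At 96 h Saa3 stood at 51.6, 59.9 and 59.4 TPM per 100 TPM of Lyz2 with Mdivi-1, against 29.0, 29.6 and 26.6 TPM without it. Saa3 was thus the smaller share beside Lyz2 with Mdivi-1 at 24 h and the larger at 96 h, with no overlap at either time. Lcn2 stood at 0.448 and 0.461 TPM per 100 TPM of Lyz2 with Mdivi-1 at 24 h, against 0.826 and 0.794 TPM without it. At 96 h these values were 7.81, 8.98 and 11.4 TPM with Mdivi-1, against 2.38, 3.82 and 2.28 TPM without it. The order of the groups turned round for Lcn2 as it did for Saa3.

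Ratios among the complement genes are given as values, since none of C3, Cfb and Cfp passed the test with Mdivi-1 at 96 h. The ratio of C3 to Cfp was 0.865, 0.781 and 1.33 with Mdivi-1 at 96 h, against 0.276, 0.291 and 0.284 without it. At 24 h the same ratio was 1.12 and 0.930 with Mdivi-1, against 1.06 and 0.908 without it, and the groups overlapped. The ratio of Cfb to Cfp was 2.36 to 2.88 with Mdivi-1 at 96 h and 1.06 to 1.87 without it, which did not overlap. At 24 h that ratio was the lower one with Mdivi-1, at 3.14 to 3.16, against 3.69 to 4.02 without it. Cfb per 100 TPM of Lyz2 was 6.60 to 7.27 TPM with Mdivi-1 at 96 h and 6.01 to 7.44 TPM without it, which overlapped. With 3 libraries a group, the smallest p an exact two-sided permutation test could give is above the threshold, so no p is attached to these ratios. The part of the background in C3 and Cfp at 96 h was not tested on these ratios.

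**Figure D4:**
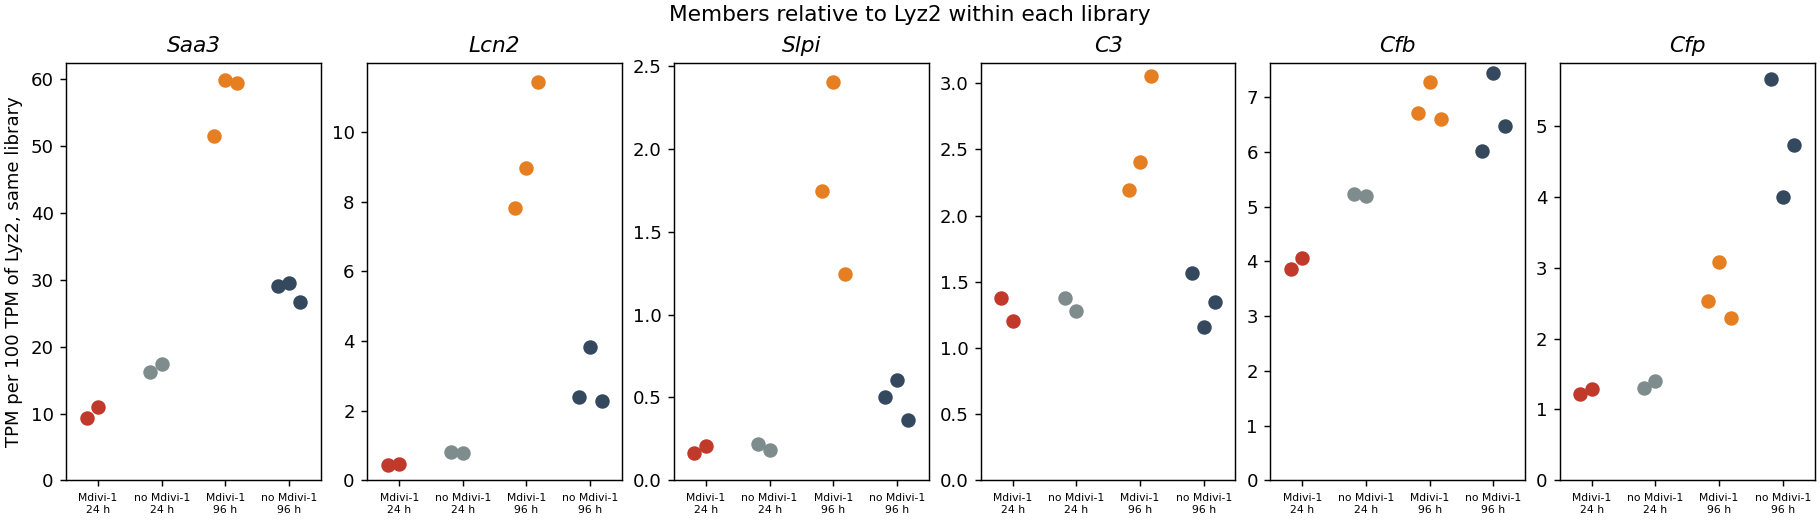
TPM of 6 members per 100 TPM of Lyz2 in the same library, for the 10 libraries fitted. Saa3 and Lcn2 are lower with Mdivi-1 at 24 h and higher with it at 96 h, Cfp is lower with it at 96 h, and Cfb overlaps at 96 h.

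Between the times, all 8 genes fell on deposited TPM, and Lcn2 with Mdivi-1 was the exception under other settings. Without Mdivi-1 the log2 change at 96 h relative to 24 h ran from -6.26 ± 0.19 for Lyz2 to -4.00 ± 0.24 for Slpi, and with Mdivi-1 from -6.17 ± 0.19 for Lyz2 to -1.77 ± 0.17 for Lcn2. All 8 members passed in both series, beside 46.9% of genes downward without Mdivi-1 and 44% with it. Among 5813 genes averaging at least 5 TPM, 98.1% passed in either direction without Mdivi-1 and 97.5% with it. All 8 members belong to that set, so a call over time is usual at their level. The median over the members was -5.64 without Mdivi-1 and -4.89 with it, against -0.41 and -0.12 over all genes tested. Low genes weigh on the latter, and over protein-coding genes averaging at least 5 TPM the medians were -2.67 and -2.52. The scaling sets where the median over all genes lies: it was 1.55 and 1.62 with median-of-ratios scaling and 1.63 and 1.71 on the protein-coding scale. Relative to 24 h, Lcn2 with Mdivi-1 fell on TPM but had a log2 change of 1.04 with median-of-ratios scaling (adjusted p = 0.00288), 0.19 with all 12 libraries and -0.96 on the protein-coding scale (adjusted p = 0.0568). The other 7 members kept their sign under every alternative run. With all 12 libraries 0 of 8 passed in either series, beside 28.3% of genes without Mdivi-1 and 31.8% with it. Macrophage markers fell over the same interval and mitochondrial ribosomal RNA took up a larger share, by the sums given above, and their part in the change between the times was not tested.

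The falls were unequal, and the order of levels changed. At 24 h without Mdivi-1, mean TPM ran Lyz2 (14975 ± 344, SD, n = 2), Saa3 (2523 ± 192), Cfb (780 ± 14.5), Cfp (203 ± 15.9), C3 (199 ± 6.15), Lcn2 (121 ± 0.601), Hp (113 ± 4.13) and Slpi (30.1 ± 2.81), and Cfp and C3 overlapped. With Mdivi-1 the order at 24 h was the same down to Cfb (521 ± 4.72), after which C3 (170 ± 20.5) and Cfp (165 ± 2.21) overlapped. At 96 h with Mdivi-1, Lcn2 (16.9 ± 1.30, n = 3) was the third member, above Cfb (12.5 ± 1.83) without overlap. At 96 h without Mdivi-1, Lcn2 (5.49 ± 1.51) was the fifth, below Cfb (13.1 ± 3.15) and Cfp (9.39 ± 2.28) without overlap. Cfp, C3 and Slpi overlapped with Mdivi-1 at 96 h, and Hp and Slpi overlapped without it.

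Lyz1, the neighbouring second lysozyme gene, is known in the mouse mainly from Paneth cells of the gut and went opposite to Lyz2 between the times. Lyz1 had 152, 152 and 139 TPM with Mdivi-1 at 96 h, against 28.4 and 26.4 TPM with it at 24 h. Without Mdivi-1 it had 148, 168 and 217 TPM at 96 h, against 35.1 and 34.6 TPM at 24 h. Lyz1 rose by a log2 change of 2.39 ± 0.14 with Mdivi-1 (adjusted p = 1.29e-07) and 2.30 ± 0.14 without it (adjusted p = 1.50e-07), while Lyz2 fell. On the protein-coding scale the log2 changes of Lyz1 were 3.26 with Mdivi-1 and 3.36 without it. The ratio of Lyz2 to Lyz1 was 1.14 to 1.30 with Mdivi-1 at 96 h, against 471 to 488 with it at 24 h, and 1.07 to 1.14 without it at 96 h, against 420 to 440 at 24 h. In the 24 h libraries numbered 3, left out of the fit, Lyz2 and Lyz1 had 37.2 and 13.4 TPM with Mdivi-1. Without Mdivi-1 they had 20.3 and 6.79 TPM there. A far smaller gap between the 2 genes was thus also seen at 24 h, in libraries made up mostly of mitochondrial ribosomal RNA. The part of library make-up in the change between the times was not tested. No receptor gene reached Lyz1 in any 96 h library. In the annotated transcripts, 15.4% of the 50-base words of Lyz2 also occur in Lyz1 and 16.1% of those of Lyz1 in Lyz2, so reads could be split between them in a way the deposited values do not show. Cfb shares 81.4% of its words with the readthrough gene Gm20547, which was at most 0.597 TPM in any library.

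**Figure D5:**
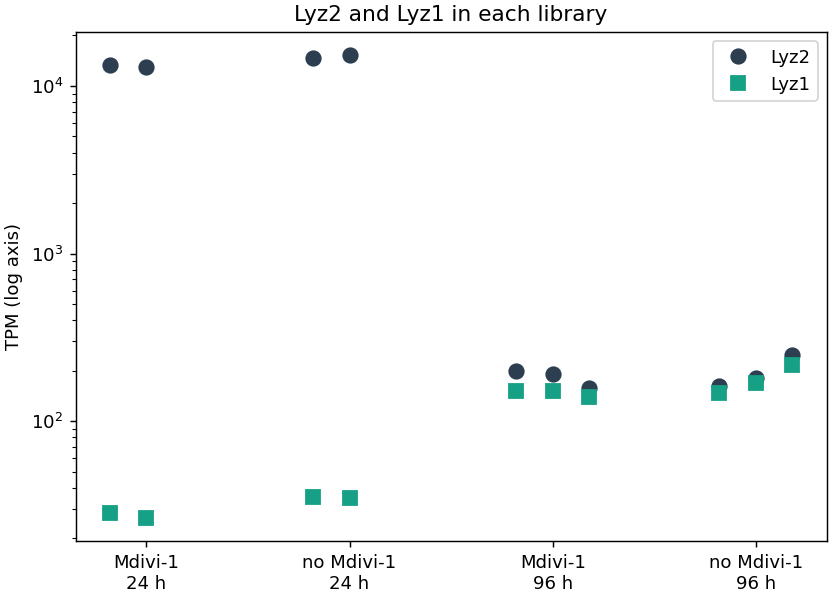
TPM of Lyz2 (circles) and Lyz1 (squares) in the 10 libraries fitted, on a log axis. At 24 h the 2 genes lie 420-fold to 488-fold apart, and at 96 h they lie within 1.30-fold of each other in both groups.

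Other genes of the same pathways were taken from lists. Of 18 further complement components, C1q subunits and proteases among them, 7 were tested. None passed in either comparison with Mdivi-1 or in the difference between the times, with median log2 changes of -0.24 at 24 h and -0.09 at 96 h. Group means of these 7 at 96 h were 0.254 to 2.23 TPM, in the range of the receptor genes. The lack of a call at 96 h or for the difference therefore says little about them. All 7 fell at 96 h relative to 24 h in both series. Of all genes tested, 46.9% passed downward over time without Mdivi-1 and 44% with it. C1qb, a subunit of the recognition molecule of the classical pathway, averaged 0.575 ± 0.515 TPM with Mdivi-1 at 96 h (SD, n = 3), against 665 ± 23.9 TPM with it at 24 h (n = 2). Without Mdivi-1 C1qb averaged 1.04 ± 0.832 TPM at 96 h, against 725 ± 26.4 TPM at 24 h. C1qa (-7.24 with and -7.72 without Mdivi-1) and C1qc (-7.08 and -7.44) fell by nearly as much. Of 14 complement receptors and regulators 10 were tested and none passed with Mdivi-1, while 7 fell with time in its presence and 8 in its absence. C3ar1, the receptor for the C3a fragment, was among them, with log2 changes of -6.79 with Mdivi-1 and -6.64 without it. Apart from Itgb2, none of the 10 averaged above 3.26 TPM in a 96 h group, so the same limit holds for them.

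Of 20 further acute phase genes 8 were tested, and none passed with Mdivi-1 at either time. None of the 8 averaged above 3.11 TPM in a 96 h group, so the test there says little about them. Over time, 2 rose and 3 fell with Mdivi-1, and 3 rose and 4 fell without it. Of all genes tested, 35.3% rose and 44% fell with Mdivi-1, and 36.3% rose and 46.9% fell without it. The risers, Hamp and Fgb in both series and Crp without Mdivi-1, are liver genes that were near or at 0 TPM at 24 h. At 96 h Crp averaged 1.50 ± 0.906 TPM with Mdivi-1 and 2.54 ± 1.95 TPM without it, in the range of the receptor genes. Of 15 innate defence proteins 4 were tested, with none passing for Mdivi-1 and Lyz1 the only riser over time. Of 8 receptors for the members 5 were tested, with none passing for Mdivi-1 and all 5 lower at 96 h. Their group means at 96 h were at most 3.85 TPM, so the test there says little about these receptors. Fpr1, a chemotactic receptor of phagocytes, had 80.3 ± 8.84 TPM with Mdivi-1 at 24 h and 229 ± 17.8 TPM without it, a log2 change of -1.50 ± 0.36 (adjusted p = 0.144). It fell with time by log2 changes of -5.25 with Mdivi-1 and -6.53 without it.

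A list of 13 regulators of acute phase genes held transcription regulators and some cytokine signalling genes, and all 13 were tested. All 13 were lower with Mdivi-1 at 24 h with a median log2 change of -0.50, and none passed. At 96 h the median was -0.12 with 3 of 13 positive, and the difference between the times was positive for 13 of 13 with a median of 0.25, again with none passing. These genes were chosen from general knowledge, and all genes tested had medians of -0.06, -0.06 and 0.09 in the same 3 comparisons. Protein-coding genes averaging at least 5 TPM had medians of -0.19, -0.07 and 0.13. Cebpd, a C/EBP factor, averaged 6.14 ± 0.633 TPM with Mdivi-1 and 12.1 ± 1.17 TPM without it at 24 h (log2 change -0.88 ± 0.19, adjusted p = 0.116). At 96 h Cebpd averaged 2.45 ± 0.236 TPM with Mdivi-1 and 2.35 ± 0.353 TPM without it. Nfkbiz, an atypical IκB protein that in mouse macrophages is needed for induction of Lcn2, averaged 5.48 ± 0.614 TPM with Mdivi-1 and 10.0 ± 0.0709 TPM without it at 24 h (log2 change -0.77 ± 0.17, adjusted p = 0.110). At 96 h Nfkbiz averaged 4.55 ± 0.103 TPM with Mdivi-1 and 6.21 ± 0.827 TPM without it.

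Genes with profiles most like each member were sought among 5813 genes averaging at least 5 TPM, by the root mean square difference of centred log2(TPM + 1) over the 10 libraries. All libraries share the change between the times, which dominates this measure. The nearest to Lcn2 was Hmox1 (0.34), which encodes the haem-degrading enzyme haem oxygenase 1, then Sqstm1 (0.37), the autophagy adaptor p62, and then Slpi (0.41), itself a member. The nearest to Slpi were Map1lc3a (0.24), Mrpl14 (0.29) and Sqstm1 (0.29). For Saa3 they were Arrb2 (0.31), Grn (0.33) and Itgal (0.33). Cfb was nearest to Tcn2 (0.16), C3 to Adap2 (0.18), Cfp to Gm2a (0.23), Hp to Abca1 (0.21) and Lyz2 to Grina (0.13). Lcn2 and Slpi stood at 0.41 from each other, against 1.24 between Lcn2 and C3, 1.39 between Lcn2 and Cfb and 1.72 between Lcn2 and Lyz2. Among the genes nearest to Slpi, however, Lcn2 ranked only 47. Slpi was low at 96 h, where the added 1 makes its fall look smaller. C3, Cfb and Hp were 0.35 to 0.45 apart from one another, and other members were about as near, with Cfb and Lyz2 at 0.36 and C3 and Saa3 at 0.48.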

How the data were processed

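The authors deposited TPM per gene, 1 column a library, from rRNA-depleted directional libraries, per the labels' protocols. How reads were aligned and counted is not given in the sources used here, nor is an annotation. The submitters' processing notes name hg19, whereas the identifiers are mouse, and 99.5% are in GENCODE M21, so no coordinates were taken from the data. TPM holds no depth, so no interval for counting error can be given. Columns were matched to samples by name, and 0 were unmapped.

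The members, lists and tests were chosen with earlier results of these data known. Values were log2(TPM + 1) of genes averaging at least 1 TPM, and the model was limma-trend (limma 3.58.1 under R 4.3.3) on 10 libraries in 4 groups, with 6 residual degrees of freedom. Every adjusted p is from limma with the Benjamini-Hochberg adjustment over all genes tested in that fit, called under 0.05. The common fit tested 19631 genes. The filter was applied anew in each alternative, so the number differs there. It was 33946 on the protein-coding scale, 28335 with median-of-ratios scaling and 23458 with the 96 h libraries alone. The added 1 makes changes of low genes look smaller. The script was tested on simulated data. All 8 members passed the filter.

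Named genes were the 8 members, Lyz1, the 3 nearest profiles of each member, and the listed pathway genes called in a comparison, at most 5 each. Cebpd, Nfkbiz, Hamp, Crp and Fgb were named after their values were seen, as were the single values of Fpr1 at 24 h. No pairing of libraries by replicate number was seen (same-number correlations of -0.24 to -0.02 across genes). With 2 or 3 libraries a group, each centred on the group mean, such correlations cannot exclude a pairing. Alternatives were pseudocounts of 0.1 and 5, other filters and scalings, background subtraction, all 12 libraries, the times fitted apart, a replicate block and each library left out. Python 3.11.15, numpy 2.4.6, pandas 2.3.3 and matplotlib 3.10.9 were used.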

Additional observations from a re-analysis of the deposited data

Results flagged for a closer look

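The change of Saa3 with Mdivi-1 differed between the times, by a log2 difference of 1.81 ± 0.21 (limma, adjusted p = 0.0158), being 0.89 ± 0.14 at 96 h and -0.92 ± 0.17 at 24 h. The change of Lcn2 differed likewise, by 2.50 ± 0.25 (adjusted p = 0.00514), being 1.49 ± 0.16 at 96 h and -1.01 ± 0.19 at 24 h. Both differences were tested as an interaction, and the values at 24 h did not pass in the common fit. All libraries with Mdivi-1 lay below those without it at 24 h and above them at 96 h for both genes, leaving out the 24 h libraries numbered 3. Over alternatives the difference ran from 1.54 to 1.94 for Saa3, which passed in 10 of 20, and from 2.03 to 3.02 for Lcn2, which passed in 11 of 20.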

How the results depend on the processing

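The counts of members called in the 5 comparisons (24 h, 96 h, their difference, time without and time with Mdivi-1) were 0, 2, 2, 8 and 8. In this section, both together always means the background subtracted and the values then rescaled to protein-coding genes. At 24 h the count was 3 with a pseudocount of 5, 2 with a mean of at least 5 TPM, 2 with the background subtracted, 6 with the times fitted apart, and 0 to 3 with 1 library left out. At 96 h it was 0 with all 12 libraries, on the protein-coding scale, with the background subtracted, with both together (an alternative chosen after seeing the data) and with the times fitted apart; it was 3 with a pseudocount of 0.1 or a mean of at least 5 TPM, 1 with a pseudocount of 5 or median-of-ratios scaling, and 1 to 3 with 1 library left out. For the difference it was 0 with all 12 libraries, median-of-ratios scaling, the protein-coding scale and both together, 1 with the background subtracted, 3 with a pseudocount of 5, and 0 to 2 with 1 library left out. With all 12 libraries it was 0 in both time comparisons. The share of all genes called also moved. At 24 h it was 0.295% in the common fit. A pseudocount of 5 gave 2.09%, a mean of at least 5 TPM 1.27%, background subtraction 2.72% and the times fitted apart 21.8%. At 96 h it was 0.143%, with 0.204% and 0.0866% at pseudocounts of 0.1 and 5 and 0.877% at a mean of at least 5 TPM. For the difference it was 0.122%, with 0.754% at a pseudocount of 5 and 1.65% with the background subtracted. The replicate block gave 0, 1, 1, 8 and 8, with 1, 3 and 4 genes in all for the first 3. Whether the numbers pair the libraries is not known.

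Genes called in all were 58 at 24 h (0 to 2424 over alternatives), 28 at 96 h (0 to 806, the highest without the third library without Mdivi-1) and 24 for the difference (0 to 206). For time they were 16342 without Mdivi-1 (5003 to 23930) and 15580 with it (5615 to 24415).

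Signs turned in these cases. Lyz2 at 24 h was 0.15 with all 12 libraries and 0.0283 with median-of-ratios scaling. At 96 h Lyz2 was 0.0126 with that scaling and -0.221 to 0.0812 with 1 library left out, positive without the third library of either group. Its difference was -0.25 with all 12, -0.0158 with median-of-ratios scaling, -0.10 on the protein-coding scale and with both together, and -0.0318 to 0.270 with 1 library left out, negative without the first 96 h library without Mdivi-1. Cfb at 96 h was 0.0612 with median-of-ratios scaling, 0.0111 with the background subtracted and -0.222 to 0.108 with 1 library left out, positive without the third library of either group. Hp at 96 h was -0.314 to 0.0632, positive without the first library without Mdivi-1. Lcn2 over time with Mdivi-1 was 0.19 with all 12 and 1.04 with median-of-ratios scaling. The causes were not tested.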

Other observations

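In the 24 h libraries numbered 3, the members were near 0. Saa3 had 0.192 TPM with Mdivi-1 and 0.272 TPM without it, and Cfb was listed at 0 TPM with Mdivi-1 and had 0.251 TPM without it. Lyz2 had 37.2 TPM with Mdivi-1 and 20.3 TPM without it, and Lyz1 had 13.4 TPM and 6.79 TPM. Among protein-coding genes Lyz2 ranked 15 with Mdivi-1 and 30 without it, and Lyz1 ranked 38 and 69, so that, as in the 96 h libraries, both lysozyme genes were among the leading genes.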
